A study of Camelus dromedarius with 4 samples.

Results

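The genes of ionotropic and metabotropic glutamate receptors, of the scaffold proteins that hold them at excitatory synapses, and of the vesicular glutamate transporters were followed in the supraoptic nucleus of the dromedary camel in winter and in summer. Members were chosen by gene symbol, with earlier results of these data known. This gave 44 of the 18152 symbols in the deposited table of season means. They comprise the GRIA, GRIK, GRIN and GRM receptor families, the DLG, DLGAP, SHANK and HOMER scaffolds, the neuroligins NLGN1 and NLGN3, and the transporters SLC17A6, SLC17A7 and SLC17A8. Of these, 43 had season means, and 42 had a mean normalised count of at least 10 in a season. GRM6, a group III metabotropic receptor, was listed without season means, and SLC17A7 stayed below 10 in both seasons.

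There were 2 libraries from winter and 2 from summer, made from pieces of dissected supraoptic nucleus. The animals of both seasons were adult Tergui males in good health and of comparable age. Season was the only labelled difference, but winter and summer animals were also slaughtered at different places, so season and place cannot be told apart. The question was whether expression in the nucleus differs with season.

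Glutamate is the main fast excitatory transmitter onto the magnocellular neurones, the large cells of the supraoptic nucleus that make vasopressin and oxytocin and release them from the posterior pituitary. AMPA and kainate receptors are ion channels that carry fast current, NMDA receptors are calcium-permeable channels that need both glutamate and depolarisation, and metabotropic receptors act through G proteins. Behind the membrane, PSD-95 family proteins bind receptor tails, SAPAP proteins link them to SHANK, and SHANK binds HOMER, which in turn binds group I metabotropic receptors. Neuroligins are adhesion proteins that join this scaffold to the presynaptic side, and the vesicular transporters load glutamate into vesicles.

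The deposited table gives 1 mean per symbol and season, in counts divided by size factors, here called normalised reads. Whole reads of the separate libraries were recovered from these means, since each read of a library adds a fixed step. The libraries are named by size factor, as winter A (1.33), winter B (0.946), summer A (0.922) and summer B (0.877), because the replicate number behind each was not assigned. For 15 members with a mean of at least 10 the reads had a single solution and could be tested, and for the others the winter mean, and in some the summer mean, could be split in more than 1 way. Levels are given for each gene across libraries and not compared between genes, since gene lengths were not used.

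Most members had similar means in both seasons, and those that were further apart were mostly higher in winter. The median log2 ratio of winter over summer was 0.11 over the 42 members, against -0.04 over all 13811 symbols with a mean of at least 10. Of the 42 members, 29 were higher in winter and 13 in summer, while 6380 of all symbols were higher in winter and 7430 in summer. More than 1.5-fold higher in winter were 9 members, or 21.4%, beside 10.1% of all symbols, and these were GRIN1, GRIN2D, GRIN3B, GRM2, GRM4, DLG4, SHANK1, SHANK3 and NLGN3. More than 1.5-fold higher in summer were GRIN3A and SLC17A8, or 4.76%, beside 12.1% of all symbols. Past 2-fold were GRM2 and NLGN3 in winter and SLC17A8 in summer, where 2.72% and 4.53% of all symbols lay. The means of 24 members were within 1.2-fold of each other, or 57.1%, beside 46.4% of all symbols. These are descriptions without a test, and the count of winter-higher members differed between the summer libraries.

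**Figure D1:**
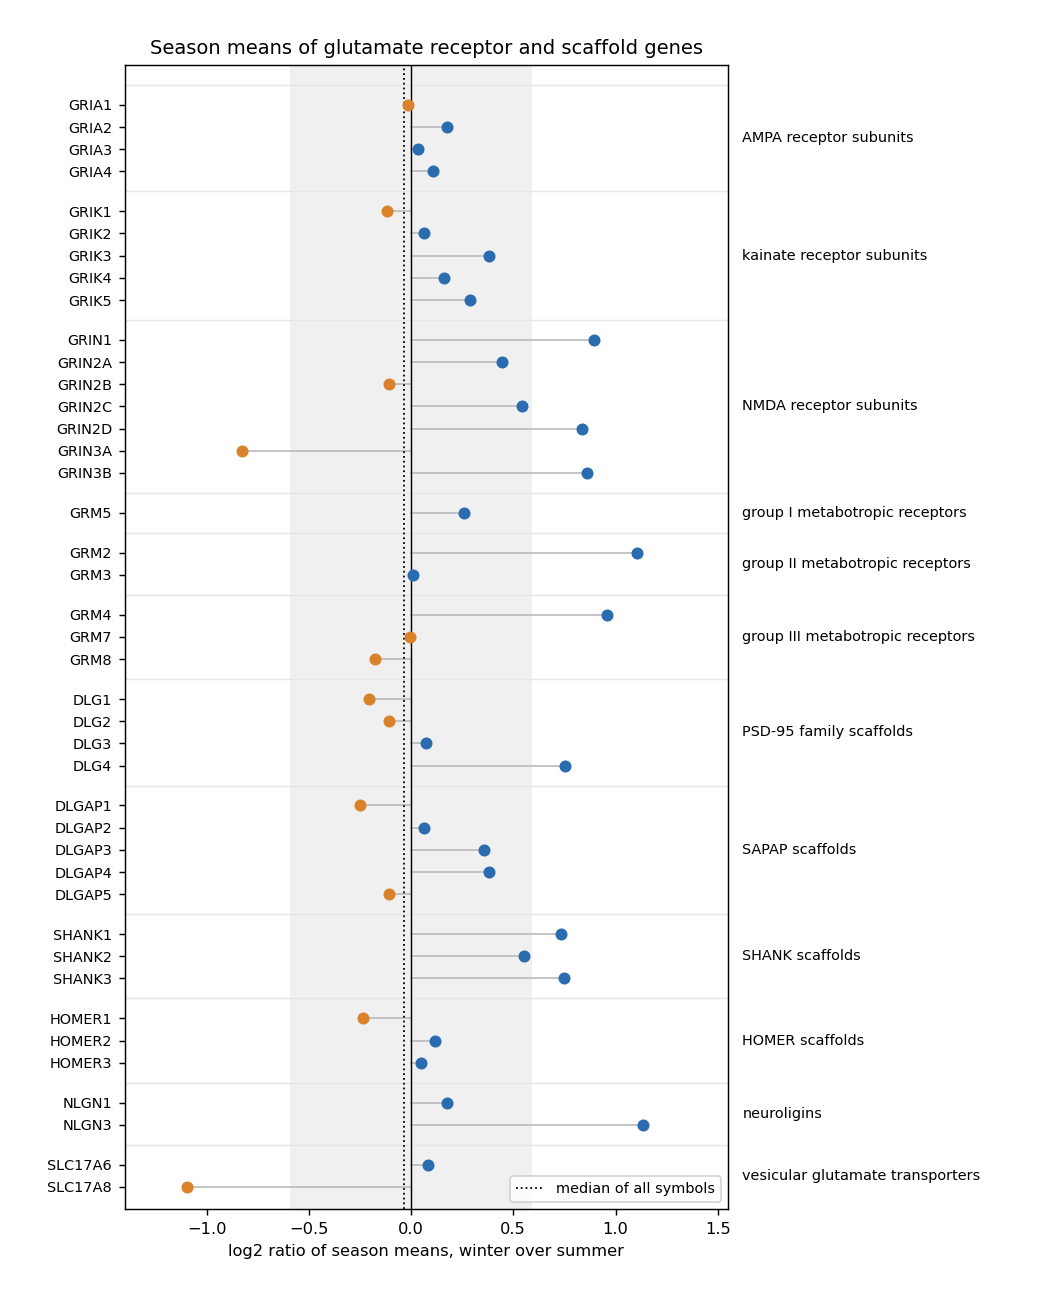
Log2 ratio of season means, winter over summer, for 41 of the 42 members with a mean of at least 10, grouped by family. Blue points are higher in winter and orange points higher in summer, grey shading marks differences within 1.5-fold, and the dotted line is the median of all symbols. The 9 members to the right of the shading include 3 NMDA subunits and 2 SHANK genes, and GRIN3A and SLC17A8 lie to the left.

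No member passed an adjusted p of 0.05 when recovered reads were tested with edgeR's quasi-likelihood method and Benjamini-Hochberg adjustment, nor did any of the 7654 symbols tested (0%). At an unadjusted p under 0.05 stood 2 of the 15 tested members, GRIN3B and SLC17A8, beside 1.99% of the tested symbols. The 2-fold rule of the study, an unadjusted p under 0.05 with more than a 2-fold difference, was met by 0 members higher in winter and by SLC17A8 higher in summer, beside 0.849% and 0.823% of tested symbols in those directions. DESeq2 and edgeR's exact test each placed 1 symbol of 7654, and no member, past an adjusted p of 0.05. With 2 libraries a season, an exact two-sided permutation test cannot give a p below 0.333. The p-values set the season difference against the spread between libraries of a season, estimated with information shared across the tested symbols.

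The libraries did not stand equally apart. Between summer A and summer B the log2 normalised reads of tested symbols had a correlation of 0.579, against 0.839 between the winter libraries (genes are not independent replicates). Pairs of a winter and a summer library had correlations of 0.716 to 0.771, so each summer library was more like either winter library than like the other summer library. Summed reads of 5 ependymal markers were 19.5 in summer A and 195 in summer B, with 89.0 and 121 in winter, and those of 5 telencephalic glutamate neurone markers were 64.0 and 229, with 107 and 67.7 in winter. NEUROD6, which defines telencephalic glutamate neurones, was at 0 in 3 libraries and at 4.56 in summer B, and NEUROD2 was listed without means. Counted reads on gene models were 4379162 to 6902037 per library in the count files, where 3 counts, the upper limit behind a count of 0, correspond to 0.435 to 0.685 CPM depending on the library. On the normalised scale 3 reads amount to 2.26 to 3.42, which covers counting error only.

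A single split of the summer mean was found for 34 of the 42 members, so that the winter mean could be set against each summer library. Of these, 28 were higher in summer B than in summer A, with a median log2 difference (1 added) of 0.56, beside 6642 of 12171 symbols and a median of 0.08. Against summer A alone, 17 of the 34 members were more than 1.5-fold higher in winter and 1 lower, with a median log2 ratio of 0.58. Of the 12171 symbols, 26.2% were higher and 11.2% lower against summer A, with a median of 0.09. Against summer B alone, 4 members were higher (GRIN2A, GRIN3B, GRM4 and NLGN3) and 5 lower (GRIN3A, GRM8, DLGAP5 and SLC17A8 among them). These are 11.8% and 14.7% of the 34 members, beside 12.6% and 19.1% of the 12171 symbols. The median against summer B was 0.04 for the members and -0.02 for the symbols. Only GRIN3B, GRM4 and NLGN3 were more than 1.5-fold above each of the summer libraries, beside 5.09% of the 12171 symbols, and SLC17A8 was more than 1.5-fold below each, beside 3.30%. What sets the summer libraries apart was not tested.

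**Figure D2:**
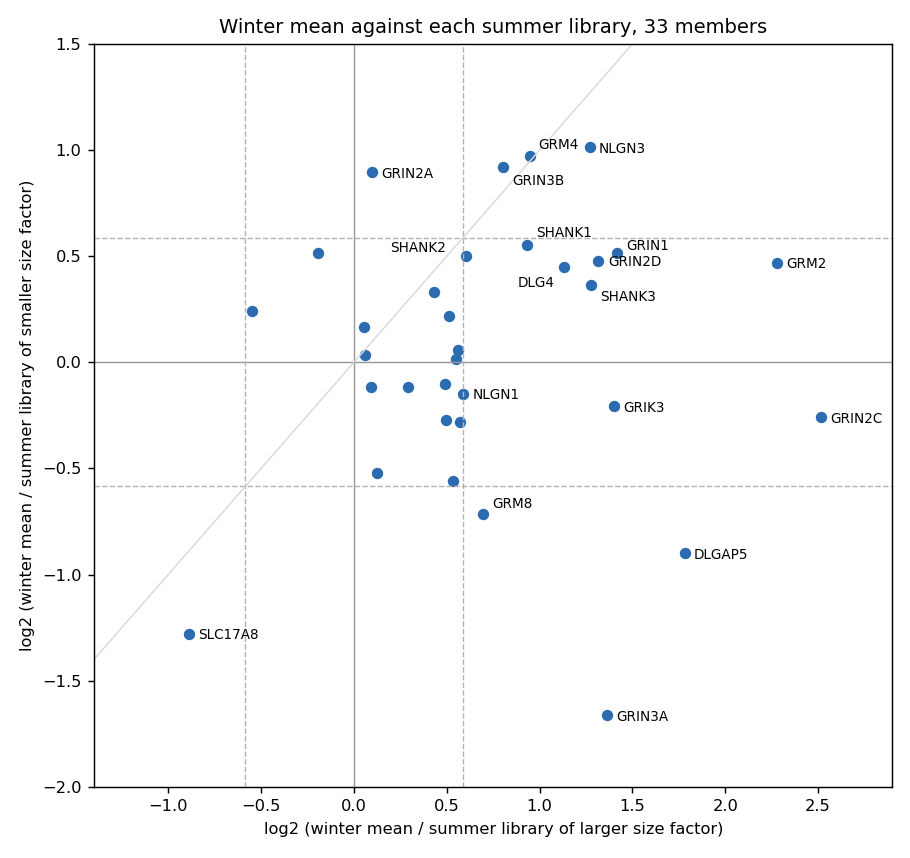
Log2 ratio of the winter mean over summer A (larger size factor, horizontal axis) and over summer B (smaller size factor, vertical axis) for 33 of the 34 members whose summer mean has a single split. Dashed lines mark 1.5-fold, the diagonal marks equal summer libraries, and members past 1.5-fold on either axis are labelled. Most points lie below the diagonal, NLGN3, GRM4 and GRIN3B lie past 1.5-fold on both axes, and GRIN3A is higher in winter against summer A and lower against summer B.

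The AMPA receptor subunits stood close to equal in the season means. GRIA1 had means of 223 in winter and 225 in summer, GRIA2 of 716 and 634, GRIA3 of 634 and 619, and GRIA4 of 158 and 146. Their log2 ratios lay between -0.02 and 0.17. GRIA4, the member of this family with single solutions, had 132 and 183 normalised reads in winter A and B and 152 and 140 in summer A and B, so that both seasons overlapped. None of the 4 subunits, which form the pore of the channel in different mixtures, reached 1.5-fold.

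Kainate receptor subunits were all within 1.5-fold in the season means, with log2 ratios between -0.12 and 0.38. GRIK2 had means of 1720 in winter and 1646 in summer, GRIK1 of 171 and 185, GRIK4 of 400.1 and 357, and GRIK5 of 114 and 93.2. GRIK3 was at 28.7 and 28.5 in winter A and B and at 10.8 and 33.1 in summer A and B, so that summer A alone lay apart. GRIK1 to GRIK3 can form channels of their own, while GRIK4 and GRIK5 need a partner from that group. The family's median log2 ratio was 0.16, and 4 of its 5 genes had the higher mean in winter.

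The NMDA receptor subunits spread more widely, with a median log2 ratio of 0.54 and with 3 of 7 genes more than 1.5-fold higher in winter and 1 more than 1.5-fold higher in summer. GRIN1 encodes the subunit that every NMDA receptor contains. Its mean was 457 in winter and 246 in summer, a log2 ratio of 0.90. Summer A and B held 171 and 320 normalised reads, and the winter mean can be split into 452 and 462 or into 592 and 323 in winter A and B. Under both splits the winter libraries lay above the summer libraries, although in the second by a narrow margin. With any 1 library left out under either split, the log2 ratio lay between 0.39 and 1.42. Fitted under each split, the unadjusted p of GRIN1 was 0.160 to 0.190 (edgeR's quasi-likelihood test).

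GRIN2A to GRIN2D encode the glutamate-binding subunits that set the kinetics of the channel. GRIN2D was at 70.9 and 52.9 in winter A and B and at 24.9 and 44.5 in summer A and B, with both winter libraries above. Its fitted log2 difference was 0.85 ± 0.49 (SE, unadjusted p = 0.124, adjusted p = 0.982 by edgeR). GRIN2A had 75.5 and 47.6 in winter and 57.5 and 33.0 in summer, and the seasons overlapped. GRIN2B, the subunit that predominates early in brain development, had means of 479 in winter and 517 in summer. GRIN2C was near the floor of these libraries, at 6.79 and 18.0 in winter A and B and 2.17 and 14.8 in summer A and B, and the fitted log2 difference of 0.49 ± 1.05 (SE, unadjusted p = 0.655) changed sign without winter B or without summer A.

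GRIN3A and GRIN3B encode the glycine-binding subunits that lower calcium entry when they join the receptor, and they differed in opposite directions. GRIN3B had 124 and 92.0 normalised reads in winter A and B and 61.8 and 57.0 in summer A and B. The winter libraries were both above the summer libraries, and the fitted log2 difference was 0.87 ± 0.37 (SE, unadjusted p = 0.0472, adjusted p = 0.982 by edgeR). GRIN3A had 83.8 and 78.3 in winter A and B and 31.4 and 256 in summer A and B. Its summer mean therefore rested on summer B, and its fitted log2 difference of -0.82 ± 0.77 (SE, unadjusted p = 0.319) was 1.36 without summer B and -1.66 without summer A. The difference between the subunits was not tested.

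Among metabotropic receptors, GRM5 is a group I receptor that couples to phospholipase C and binds HOMER. It had means of 216 in winter and 180 in summer, without a single winter split.

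GRM2 and GRM3 are the group II receptors, which reduce transmitter release or act on glia. GRM2 had 13.6 and 18.0 normalised reads in winter A and B and 3.25 and 11.4 in summer A and B. These are 18 and 17 reads against 3 and 10, so that 1 summer library was at the floor, and the log2 difference was 1.09 ± 0.89 (SE, unadjusted p = 0.258). Without summer A it was 0.45, and without summer B 2.22. GRM3, the group II receptor of astrocytes, had means of 524 in winter and 521 in summer.

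Of the group III receptors, which are mostly presynaptic, GRM4 was higher in both winter libraries, at 67.2 and 58.2 against 32.5 and 31.9 in summer A and B. Its libraries differed little within a season, and the log2 difference was 0.96 ± 0.44 (SE, unadjusted p = 0.0640, adjusted p = 0.982 by edgeR). Left-out libraries kept it between 0.85 and 1.06. GRM7 had means of 2067 in winter and 2072 in summer, and GRM8 of 181 and 204. GRM8 was at 112 in summer A and 296 in summer B, so that the winter mean lay between the summer libraries.

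**Figure D3:**
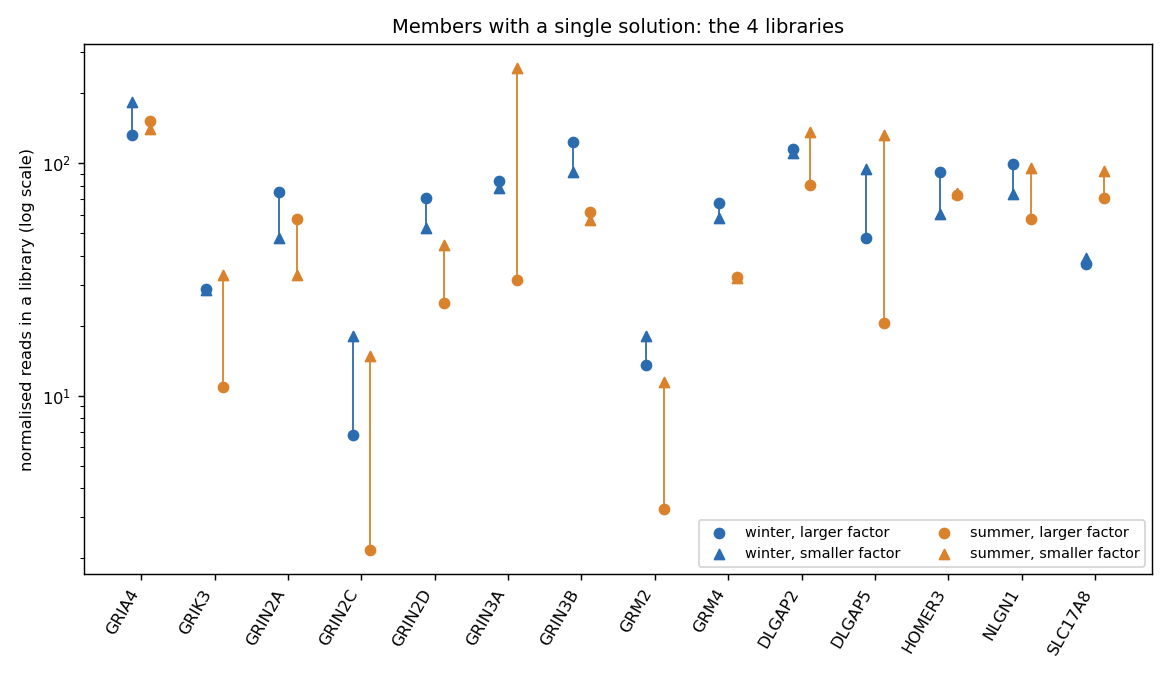
Normalised reads of 14 of the 15 members with a single solution in the 4 libraries, on a log scale. Blue marks winter and orange summer, circles the library of larger size factor (A) and triangles that of smaller size factor (B) of each season. Winter lies above summer in GRIN2D, GRIN3B, GRM2 and GRM4 and below it in SLC17A8, and the summer libraries are widely apart in GRIN3A, DLGAP5 and GRIN2C.

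Over the 15 tested members, winter exceeded summer without overlap in 4 (GRIN2D, GRIN3B, GRM2 and GRM4), beside 13.3% of tested symbols. Summer exceeded winter without overlap in 1 (SLC17A8), beside 17.2%. The median difference between the libraries of a season, in absolute log2 units, was 0.417 in winter and 0.780 in summer for these members, and 0.433 and 0.641 for all tested symbols.

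Among the scaffold genes, DLG4, SHANK1 and SHANK3 were more than 1.5-fold higher in winter, and the others, SHANK2 and all SAPAP and HOMER genes included, were within 1.5-fold. Over the 17 scaffold and neuroligin genes the median log2 ratio was 0.12, with 12 higher in winter and 5 in summer. DLG4 encodes PSD-95, the main binding partner of NMDA receptor tails. It had means of 297 in winter and 177 in summer, with 136 and 218 in summer A and B. Of the 3 possible winter splits (73.2 and 521, 213 and 382, or 352 and 242), 1 placed both winter libraries above both summer libraries, and the unadjusted p was 0.150 to 0.406. The other family members were closer, with means of 264 and 305 for DLG1, 1081 and 1166 for DLG2, and 163 and 155 for DLG3 in winter and summer.

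The SHANK genes encode the large proteins that tie receptor complexes to the actin of the spine, and all 3 had the higher mean in winter. SHANK1 had means of 439 in winter and 264 in summer, with 230 and 299 in summer A and B and either 459 and 418 or 599 and 278 in winter A and B. SHANK3 had means of 210 and 125, with 86.8 and 163 in summer A and B and either 242 and 178 or 382 and 38.1 in winter A and B. SHANK2 had means of 171 and 117, with 113 and 121 in summer A and B and either 206 and 136 or 66.4 and 276 in winter A and B.

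For each SHANK gene 1 of the 2 splits put both winter libraries above both summer libraries. The log2 ratios of the means were 0.73, 0.55 and 0.75 for SHANK1, SHANK2 and SHANK3. Over the splits the unadjusted p was 0.204 to 0.263 for SHANK1, 0.174 to 0.414 for SHANK2 and 0.132 to 0.445 for SHANK3 (edgeR's quasi-likelihood test). Against summer B alone, the winter means of the 3 genes stood higher by log2 ratios of 0.55, 0.50 and 0.36.

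NLGN3 encodes a neuroligin found at excitatory and inhibitory synapses, and it had the highest log2 ratio of the 42 members, 1.14. Its means were 324 in winter and 148 in summer, with 134 and 161 in summer A and B. The winter mean can be split into 170 and 479, 309 and 340, or 449 and 200 in winter A and B, and all 3 splits lie above both summer libraries. The unadjusted p was 0.0284 to 0.0902 over the splits, and the smallest adjusted p was 0.981. With any 1 library left out under any split, its log2 ratio stayed between 0.20 and 1.70. NLGN1, the neuroligin of excitatory synapses, had 98.9 and 74.0 in winter A and B and 57.5 and 95.7 in summer A and B, with overlap.

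**Figure D4:**
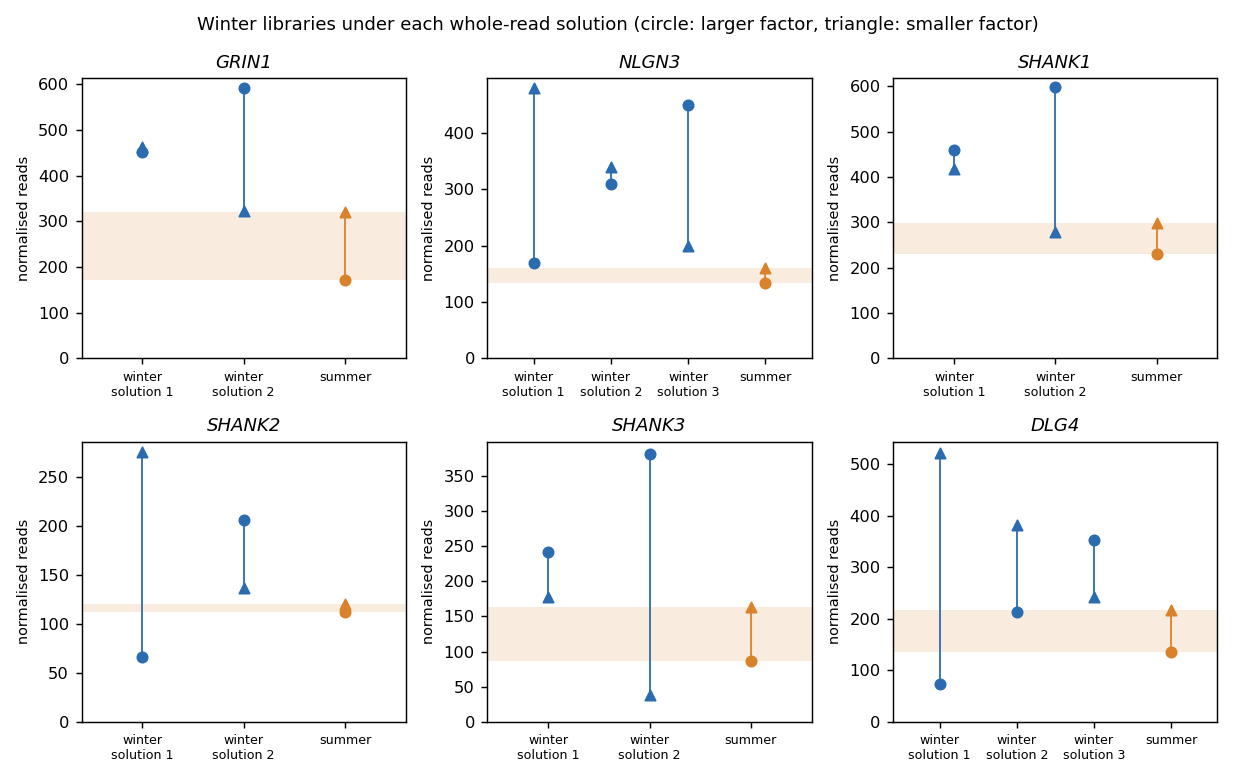
Normalised reads of GRIN1, NLGN3, SHANK1, SHANK2, SHANK3 and DLG4 in winter under each possible split of the winter mean (blue) and in summer (orange, range shaded). Circles mark the library of larger and triangles that of smaller size factor. Every split of GRIN1 and NLGN3 places winter above the summer range, but only 1 split of each SHANK gene and of DLG4 does.

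SAPAP genes were within 1.5-fold. DLGAP1 had means of 517 in winter and 615 in summer, DLGAP3 of 158 and 123, and DLGAP4 of 256 and 196. DLGAP2 had 115 and 111 in winter A and B and 80.2 and 137 in summer A and B. DLGAP5 shares the name but encodes a mitotic spindle protein and not a synaptic scaffold, with 47.5 and 94.1 in winter A and B and 20.6 and 132 in summer A and B. Its fitted log2 difference of -0.12 ± 0.75 (SE, unadjusted p = 0.875) took either sign with the library left out.

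HOMER genes, whose products cross-link group I receptors with SHANK, had log2 ratios between -0.24 and 0.12. HOMER1, whose short form is made after neuronal activity, had means of 215 in winter and 253 in summer, and short and long forms are not separated in these values. HOMER2 had means of 251 and 231. HOMER3 had 91.3 and 60.3 in winter A and B and 72.7 and 74.1 in summer A and B, so that the seasons overlapped.

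The vesicular transporters mark cells that release glutamate. SLC17A6 (VGLUT2), the transporter of most hypothalamic glutamate neurones, had means of 213 in winter and 201 in summer, with 143 and 259 in summer A and B. SLC17A7 (VGLUT1), the transporter of cortical neurones, was near the floor, at 6.04 and 13.8 in winter and 0 and 13.7 in summer A and B. SLC17A8 (VGLUT3), found in scattered neurones that often use a second transmitter, was lower in both winter libraries. It had 37.0 and 39.1 in winter A and B and 70.5 and 92.3 in summer A and B. The fitted log2 difference was -1.10 ± 0.41 (SE), or 2.14-fold lower in winter (unadjusted p = 0.0286, adjusted p = 0.982 by edgeR). With total recovered reads as the scaling it was -0.99, just short of 2-fold, and GRM4 met the 2-fold rule instead, at 1.05 (unadjusted p = 0.0499). The SLC17A8 difference kept its direction without any 1 library, between -1.28 and -0.89, although without either winter library or without summer B the unadjusted p was 0.0908 to 0.146.

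Other genes of the pathway were read in lists of partners, which were chosen with earlier results of these data known. Of 15 auxiliary subunits of AMPA and kainate receptors, 13 had a mean of at least 10, and 12 of these were higher in winter, with a median log2 ratio of 0.47. All 13 were tested, and 3 passed the 2-fold rule, each higher in winter, beside the 0.849% of all tested symbols given above. CACNG8 (TARP gamma-8), which traffics AMPA receptors, was at 59.6 and 98.4 in winter A and B and 7.59 and 33.0 in summer A and B. Its log2 difference was 1.95 ± 0.65 (SE, unadjusted p = 0.0187). CACNG4 (TARP gamma-4) was at 92.8 and 47.6 against 19.5 and 25.1, a log2 difference of 1.67 ± 0.54 (SE, unadjusted p = 0.0162). SHISA7, which is also described as a partner of GABA-A receptors, was at 92.1 and 118 against 44.5 and 52.4, a log2 difference of 1.11 ± 0.38 (SE, unadjusted p = 0.0195).

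In these 3 genes the winter libraries were above those of summer, with an adjusted p of 0.982 for each in edgeR's test. With 1 library left out, the log2 difference lay between 1.09 and 2.05 for CACNG4 and between 0.92 and 1.29 for SHISA7. That of CACNG8 lay between 1.25 (without summer A) and 3.35 (without summer B). NETO1, an auxiliary subunit of kainate receptors, was lower in both winter libraries, at 68.7 and 79.3 against 160 and 104, a log2 difference of -0.84 ± 0.37 (SE, unadjusted p = 0.0551).

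The 20 partners of the postsynaptic density, such as kinases and GTPase regulators, had a median log2 ratio of 0.11, with 12 higher in winter and 8 in summer. None of the 9 tested passed an unadjusted p of 0.05. LRRC7 had means of 1265 in winter and 1351 in summer, and NSF of 1307 and 1042. For the 10 genes of glutamate clearance and supply the median was 0.03, with 5 higher in each season. GLUL, the glutamine synthetase of astrocytes, had means of 3194 in winter and 3450 in summer. Neither of the 2 tested genes of that list passed an unadjusted p of 0.05.

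Markers of cell types moved beside these lists. Of 8 pan-neuronal markers with means, 7 were higher in winter, with a median log2 ratio of 0.69. Only 1 of the 8, RBFOX3, a nuclear protein of neurones, had a single solution in both seasons. RBFOX3 was at 53.6 and 37.0 in winter A and B and 15.2 and 33.0 in summer A and B, so that winter B and summer B were close. The summed means of these 8 were 7351 in winter and 5588 in summer, with NEFL at 3493 and 2288 the largest part. UCHL1, the pan-neuronal marker that was lower in winter, had means of 1639 and 2002. Of 7 astrocyte markers, 4 were lower in winter by more than 1.5-fold, and 3 (ALDH1L1, SLC1A2 and SLC1A3) were higher in winter by log2 ratios of 0.14 to 0.28. The list's median was -0.65. Its summed means of 22987 in winter and 37897 in summer were carried by GFAP (14423 and 25074) and S100B (7490 and 11788). The medians were 0.07 for 7 magnocellular markers, 0.34 for 3 GABA neurone markers, 0.19 for 7 oligodendrocyte markers, 0.35 for 5 oligodendrocyte precursor markers, -0.26 for 7 microglia markers and -0.10 for 6 endothelial markers. The defining hormone genes of the nucleus were present, with means of 2560 in winter and 11822 in summer for AVP (listed as putative) and of 621 and 592 for OXT; reads that the pair may share were not separated. In bulk tissue, fewer cells of a type and less RNA per cell cannot be told apart, and the part of cell makeup in the differences of the receptor and scaffold genes was not tested.

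**Figure D5:**
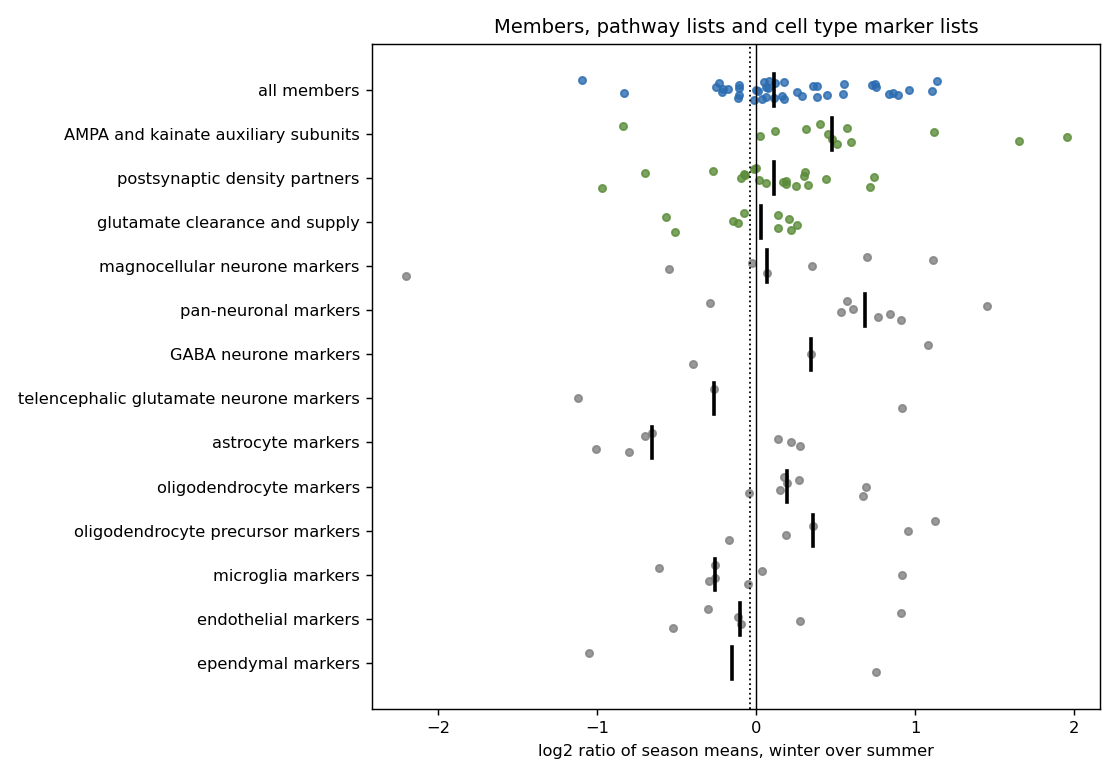
Log2 ratio of season means, winter over summer, for the members (blue), 3 lists of partner genes (green) and 10 lists of cell type markers (grey), each point a gene with a mean of at least 10. Black bars are list medians and the dotted line is the median of all symbols. Pan-neuronal markers have a median of 0.69 and astrocyte markers of -0.65, on either side of the members' 0.11.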

How the data were processed

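RNA of 2 winter and 2 summer supraoptic nuclei was sequenced from stranded, rRNA-depleted libraries. The authors aligned reads with TopHat to their own dromedary assembly and counted them with HTSeq (versions not given in the sources used here), and the deposited count files hold raw read counts for 64989 gene models without gene names, used here for depth only. Their 5 tally lines, 72.2% to 79.3% of tallied alignments, stayed out. The deposited season means are a signal: for each season, the authors averaged counts that they had scaled by DESeq size factors. In the same table, 2 columns of the authors' fold changes and p-values were not used.

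Whole reads were recovered from each season mean by the fixed step of each library's reads. Of low means, 100% were sums of whole reads, against 0.328% (winter) and 0.188% (summer) of the same values moved slightly. The smallest mean with more than 1 solution was 100.2 in winter and 368.9 in summer. Some larger means kept a single solution, but tested genes favour low means. Symbols with single solutions and a mean of 10 or more in either season (7654) were tested in R 4.3.3 with edgeR 4.0.16 (glmQLFit, glmQLFTest, size factors as offsets) and adjusted by Benjamini-Hochberg over all of them. The SE of a fitted log2 difference is its size divided by the square root of the F statistic. Members with 2 to 50 joint solutions were fitted under every solution. DLG2, GRIK2 and GRM7 had more and were not fitted. Alternatives included DESeq2 1.42.0, other scalings and filters, and leaving out each library. Setting the winter mean against each summer library was added after the data were examined. Members at or above 10 are given by season means or, with single solutions, by the reads of each library, with tests for those at an unadjusted p under 0.05 and the 5 largest fitted rises and falls (fewer than 5 falls existed). The values of 1 member, which the counts include, are not reported here. Lists and members were chosen with earlier results of these data known. Scripts were tested on simulated data. Figures were drawn with matplotlib 3.10.9.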

Additional observations from a re-analysis of the deposited data

How the results depend on the processing

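With 2 libraries a season every difference is imprecise, and 27 of the 42 members with a mean of at least 10 could not be split uniquely into libraries. No paired analysis was possible because each animal was sampled at slaughter, so winter and summer hold different animals. With 1 library left out, its season has a lone sample that is assumed to vary like the other season.

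The count of 1 member past the 2-fold rule became 0 with DESeq2, 2 with a 1.5-fold threshold and 2 under the most favourable solution of the members with several (NLGN3 added). With total recovered reads it stayed 1, but the member was GRM4 (1.05, higher in winter) and not SLC17A8 (-0.99). With a library left out it ranged from 0 to 4, and the count past an adjusted p of 0.05 from 0 to 1 (GRIN3A without summer A). Without summer A, 159 of 1107 symbols past the rule were higher in winter, and without summer B 952 of 1161, against 65 of 128 with all libraries. Total recovered reads as scaling gave 122 of 168, and moved the median of tested symbols from -0.11 to -0.02. The count of 11 members more than 1.5-fold apart became 3 at 2-fold and ranged from 9 to 18 with a summer library left out (34 members, 18 without summer B). Of 12171 symbols, 26.2% were higher and 11.2% lower in winter by more than 1.5-fold without summer B. Without summer A these shares were 12.6% and 19.1%. The median log2 ratio of 0.11 ranged from 0.044 to 0.581 with a library left out, highest without summer B; these values cover only the 34 members with a single summer split or the 15 with single solutions, whose medians with all libraries were 0.22 and 0.17. The count of 5 members without overlap stayed 5 under both other scalings.

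Over 8 members named with a test and 10 alternatives each, 74 of 80 values kept their direction. DLGAP5 became 0.058 with total reads and ranged from -0.91 to 1.77 with a library left out, GRIN2C from -0.30 to 2.40 and GRIN3A from -1.66 to 1.36. GRIN3B kept its direction but not its unadjusted p under 0.05 in 8 of 10 alternatives. The causes were not tested.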
